A study of Rattus norvegicus with 6 samples.

Results

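Cck and Nos1 are 2 genes that mark transmitter use by hypothalamic neurons, and their mRNA was followed here in the ventromedial hypothalamus (VMH) of rats exposed to predator odor (PO) or control odor. They are 2 of the 29039 features in the count table, of which 26689 are Ensembl genes and 2350 are unannotated transcripts. Both were picked with their levels in these same libraries known and stand in the deposited table of called genes, so the difference between odors in Cck and Nos1 is given as a description. No p-value is printed for either gene, and counts of calls are given for scale alone. At a 1.47-fold difference, Nos1 lies just under the fold cut-off that the methods of the study name, while Cck lies above it. The RNA came from micropunches of the VMH of male Sprague Dawley rats of about 10 months, with 1 library per rat. The predator odor group (n = 3, libraries P8, P13 and P14) received a piece of towel that ferrets had used as bedding, and the control odor group (n = 3, libraries C2, C3 and C4) received a piece of a clean but otherwise identical towel. Rats of both groups had been handled and given control odor daily for 2 weeks beforehand.

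Cck encodes the precursor of cholecystokinin, a peptide of gut and brain that acts through G protein-coupled receptors. In the brain it is released together with fast transmitters, and it has long been studied in satiety and in fear and anxiety. Nos1 encodes neuronal nitric oxide synthase, a calmodulin-dependent enzyme that makes the gas nitric oxide when calcium enters the cell, often through NMDA receptors. Nitric oxide diffuses to neighbouring cells, where it activates soluble guanylyl cyclase or modifies cysteines of proteins. The VMH takes part in energy balance and in defensive responses to predators.

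Cck mRNA was higher after PO than after control odor in every pairing of libraries, and Nos1 mRNA was lower. Cck (ENSRNOG00000019321) had 198, 200 and 130 counts in the PO libraries P8, P13 and P14, against 111, 86 and 71 counts in the control odor libraries C2, C3 and C4. As CPM, the counts scaled to library size with TMM factors, these were 9.91, 11.0 and 7.78 CPM after PO, against 6.29, 5.27 and 3.83 CPM after control odor. The groups did not overlap, which held in either direction for 26.2% of all features tested, and higher after PO for 13%. The mean level of Cck was 9.57 ± 1.65 CPM after PO and 5.13 ± 1.24 CPM after control odor (SD, n = 3 each). The log2 fold change fitted by edgeR was 0.90 (SE 0.21), a 1.87-fold higher level after PO. In a bulk micropunch, more cells of a type and more RNA per cell cannot be told apart, for this and every level that follows.

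Nos1 (ENSRNOG00000001130) had 322, 309 and 221 counts in P8, P13 and P14, against 419, 362 and 415 counts in C2, C3 and C4. Its levels were 16.1, 17.05 and 13.2 CPM after PO, against 23.7, 22.2 and 22.4 CPM after control odor. Again the groups did not overlap, as was so in this direction for 13.2% of all features tested. The means of Nos1 were 15.5 ± 1.99 CPM after PO and 22.8 ± 0.845 CPM after control odor (SD, n = 3 each). The fitted log2 fold change was -0.56 (SE 0.11), so that the level after PO was 0.680 of that after control odor. Library P14 had the lowest level of both genes among the PO rats, and the control odor rats differed little from each other in Nos1.

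**Figure D1:**
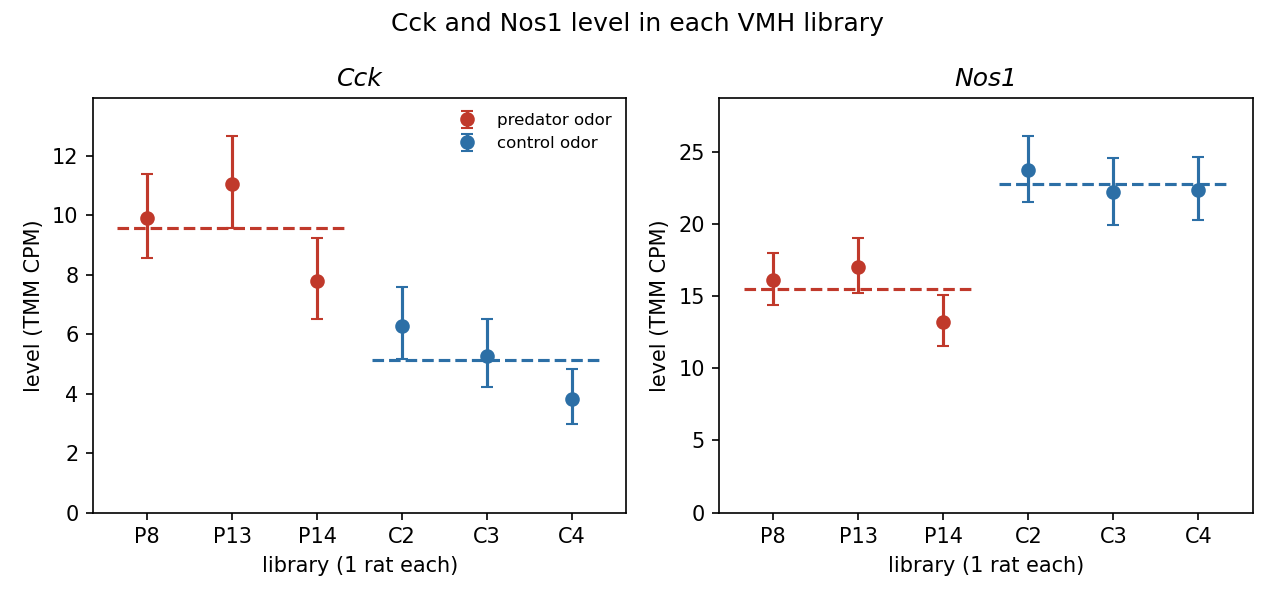
Level of Cck (left) and Nos1 (right) in each library, in TMM-scaled CPM, with exact Poisson 95% intervals of the counts as bars and group means as dashed lines. The 3 PO libraries lie between 7.78 and 11.0 CPM for Cck and between 13.2 and 17.05 CPM for Nos1, all above the control odor libraries for Cck and all below them for Nos1.

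The gap between the groups can be read against the counting error of single libraries, which exact Poisson 95% intervals describe and which covers counting error only. For Cck the nearest libraries were P14 and C2, at 7.78 and 6.29 CPM, and their intervals overlapped, since that of P14 began at 6.50 CPM and that of C2 ended at 7.57 CPM. For Nos1 the nearest libraries were P13 and C3, at 17.05 and 22.2 CPM, and their intervals did not overlap, since that of P13 ended at 19.1 CPM and that of C3 began at 19.96 CPM. The coefficient of variation of Cck among rats was 17.3% after PO and 24.1% after control odor, where counting alone would give about 7.65% and 10.7%. That of Nos1 was 12.9% after PO and 3.71% after control odor, where counting alone would give about 5.996% and 5.02%. The spread of Nos1 among control odor rats was thus no larger than counting error, while the other 3 spreads were larger. The biological coefficient of variation that edgeR fitted was 0.193 for Cck and 0.118 for Nos1.

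By FPKM, which divides by gene length and so allows the genes to be compared, Cck had the higher value of the pair in every library. In C4 the genes were close, at 5.51 and 5.11 FPKM, within the counting error of 11.9% for Cck there. Cck stood at 13.9, 15.6 and 10.6 FPKM in P8, P13 and P14, against 9.18, 7.74 and 5.51 FPKM in C2, C3 and C4. Nos1 stood at 3.59, 3.82 and 2.86 FPKM after PO, against 5.50, 5.17 and 5.11 FPKM after control odor. The lengths that the deposited FPKM imply are 702 bases for Cck and 4421 bases for Nos1, which is why Nos1 had the larger counts and the smaller FPKM. Among the features tested, Cck ranked at percentiles 60.5 to 67.2 after PO and 45.7 to 55.8 after control odor. Nos1 ranked at percentiles 35.2 to 38.8 after PO and 43.5 to 45.0 after control odor. In the RefSeq annotation no gene overlaps Cck, and 2 lncRNA genes and no other protein-coding gene overlap Nos1. Whether these lncRNAs were in the annotation used for counting, and whether strand was kept, is not known here. If they were absent from it, reads of theirs that fell on Nos1 exons could have been counted for Nos1. This was not tested.

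The ratio of Cck to Nos1 within a library does not depend on how libraries are scaled against each other. It was 3.87, 4.08 and 3.70 in P8, P13 and P14, against 1.67, 1.496 and 1.08 in C2, C3 and C4. The mean ratio was 3.88 ± 0.186 after PO and 1.41 ± 0.304 after control odor (SD, n = 3 each). P14, which was lowest among the PO rats for each gene, was close to P8 and P13 in the ratio. On the log2 scale the ratio was 1.48 higher after PO, and this difference lay between 1.297 without C4 and 1.61 without C2 when each library was left out. As both genes were chosen for their difference between the odors, the ratio adds no independent evidence.

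**Figure D2:**
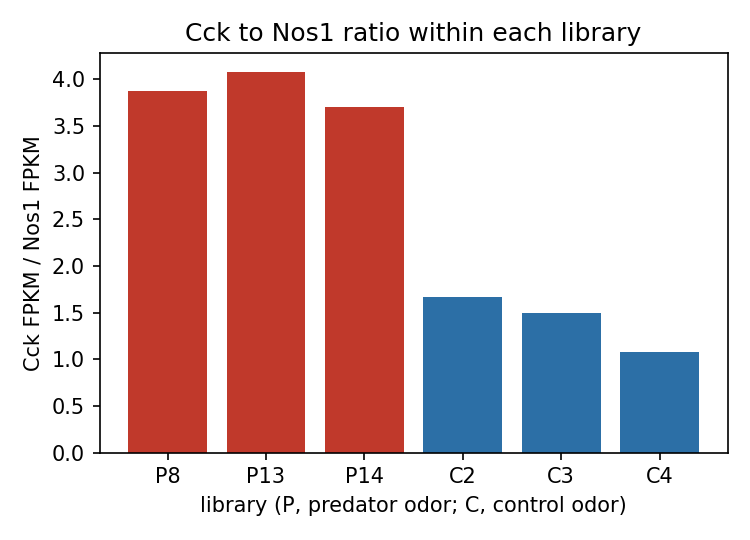
Cck FPKM divided by Nos1 FPKM in each library, PO libraries on the left and control odor libraries on the right. The PO libraries lie between 3.70 and 4.08, all above the control odor libraries, which lie between 1.08 and 1.67.

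Both fold changes kept their direction under every normalization, filter, fit and omission tried. As the groups did not overlap in either gene, leaving out 1 library could not reverse the direction at a given scaling. The omissions thus show only how far the size of the difference moved. The log2 fold change of Cck lay between 0.77 and 0.93 under the 9 alternatives that kept all libraries, and between 0.73 without C4 and 1.08 without C2 when each library was left out. That of Nos1 lay between -0.62 and -0.51 under the alternatives with all libraries, and between -0.62 without P13 and -0.46 without P14. The count of calls depended on the tool far more than the fold changes did. At an adjusted p under 0.05, edgeR called 0 of the 2 genes, limma voom called 0 and DESeq2 called 2. At an unadjusted p under 0.05 edgeR reached 2 of the 2, as it did for 3299 of all 16685 features tested (19.8%). Over all features, edgeR called 59 of 16685 tested (0.354%, 0.144% higher and 0.21% lower after PO), and DESeq2 called 865 of the 13707 to which it gave an adjusted p (6.31%). Limma voom called 16 (0.0959%). The groups did not overlap in 26.2% of the features tested, 13% higher and 13.2% lower after PO. Nothing is read from these counts about Cck and Nos1, which were selected on this contrast.

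**Figure D3:**
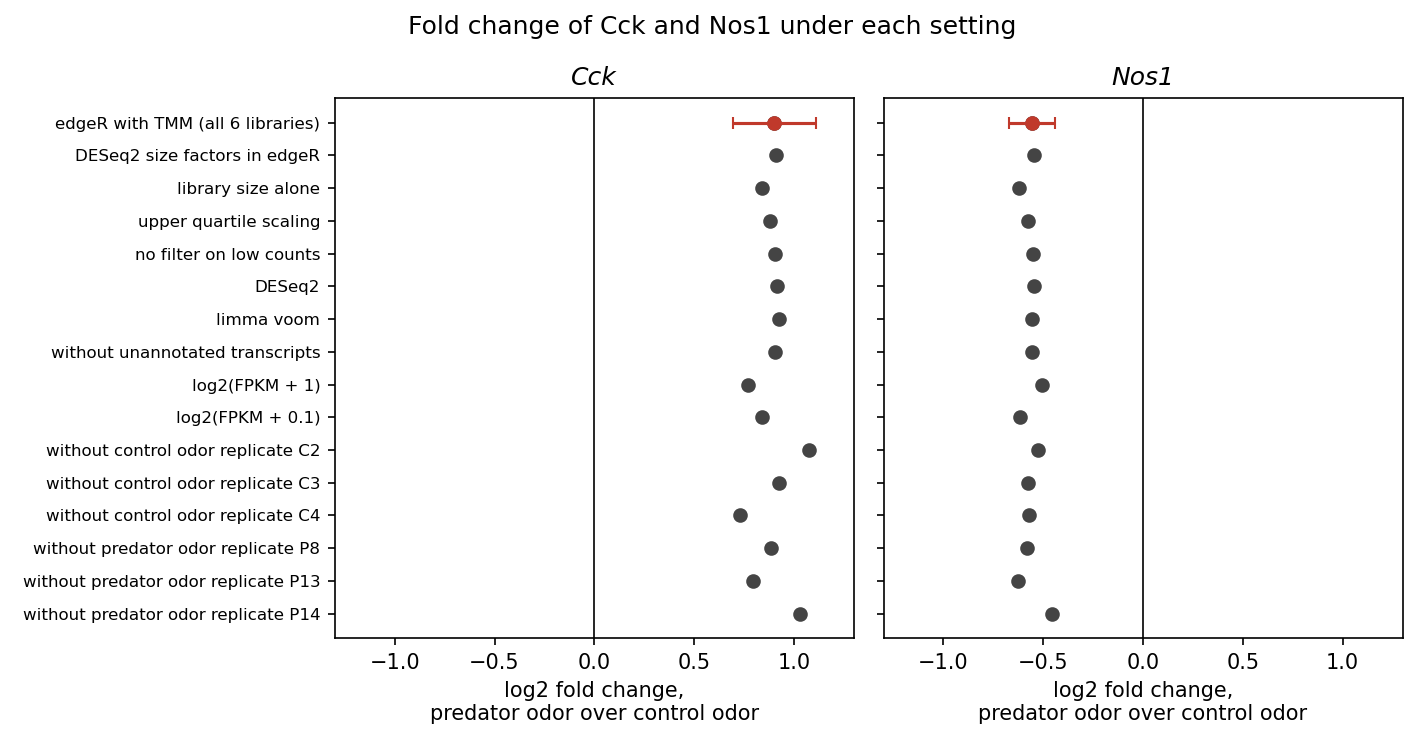
Log2 fold change (PO over control odor) of Cck (left) and Nos1 (right) in the edgeR fit with all 6 libraries (red, bar = SE) and under each alternative (grey points). Cck stays between 0.73 and 1.08 and Nos1 between -0.62 and -0.46.

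A reference sequence was at hand for the promoter of Nos1 and is shown because Nos1 transcription in neurons is known to respond to calcium through the factor CREB. The 250 bases before the RefSeq start lie at chr12:44371838-44372087 of GRCr8, on the minus strand, a different build from the Rnor_5.0 on which the reads were counted. The capitals mark TGACG and its reverse complement CGTCA, the core of the CRE (cyclic AMP response element) that CREB binds.

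Nos1 promoter: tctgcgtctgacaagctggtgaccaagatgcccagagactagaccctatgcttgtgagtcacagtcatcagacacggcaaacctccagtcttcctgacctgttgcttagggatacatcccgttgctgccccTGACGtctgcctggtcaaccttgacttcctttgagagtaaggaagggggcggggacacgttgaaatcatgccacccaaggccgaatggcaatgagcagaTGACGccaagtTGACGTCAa

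The full CRE, TGACGTCA, which reads the same on both strands, occurs once, with its first base 9 bases before the start. It occurs in 1.59% of the 33469 RefSeq promoters of that length. The core occurs 4 times on either strand, 119, 20, 9 and 6 bases before the start, of which the last pair overlap inside the CRE, and 18.2% of the promoters hold at least 1. Nos1 has 6 RefSeq transcripts, and this start lies inside the span of the gene, so that other starts exist. The match is a description of the letters, and the binding of no factor was measured in these rats.

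The study's GO table, which lists the genes it called under each term, placed Cck and Nos1 mostly apart in its small terms and often together in its broad ones. Of its 1132 terms, 165 held Cck, 156 held Nos1 and 68 held both. Among terms with at most 100 genes in the background, 23 held Cck, 27 held Nos1 and 1 held both, which was the multicellular organismal response to stress, with Scn9a and Tspo. The small terms of Cck included eating behavior, response to food, and both negative and positive regulation of the behavioral fear response. Those of Nos1 included nitric-oxide synthase activity, calmodulin binding, S-nitrosylation of cysteines and negative regulation of synaptic transmission. The broader term synaptic transmission held Nos1 and not Cck. In the KEGG table Nos1 stood in 3 of 28 pathways, namely phagosome, circadian entrainment and amyotrophic lateral sclerosis, and Cck in 0.

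The named genes that these terms list beside Cck or Nos1 number 32. All came from the study's own list of called genes, so neither their number nor their direction is independent evidence. Of the 32, 10 had a higher and 22 a lower mean after PO. At an adjusted p under 0.05 over all features (edgeR), 6 rose and 5 fell, where 59 of all 16685 features tested were called (0.354%). As the study had already called the 32, the 2 shares cannot be compared. The count among the 32 was 31 by DESeq2 and 5 by limma voom. Leaving out a PO library gave 16 (P8), 19 (P13) and 1 (P14), and leaving out a control odor library gave 0 (C2), 3 (C3) and 1 (C4). The 10 genes listed with Cck had a median log2 fold change of 0.34, and 4 rose and 1 fell. The 18 listed with Nos1 in GO had a median of -0.36, with 4 rising and 2 falling. The 10 listed with Nos1 in KEGG all had lower means after PO, at a median of -1.06, and 3 fell. Those 3, Colec12, RT1-Ba and RT1-Bb, were listed under phagosome. Camk2a, Gnb1, Gria2 and Ppp3cb, listed under the other pathways, had log2 fold changes of -0.39, -0.32, -0.32 and -0.36 and did not pass the threshold.

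**Figure D4:**
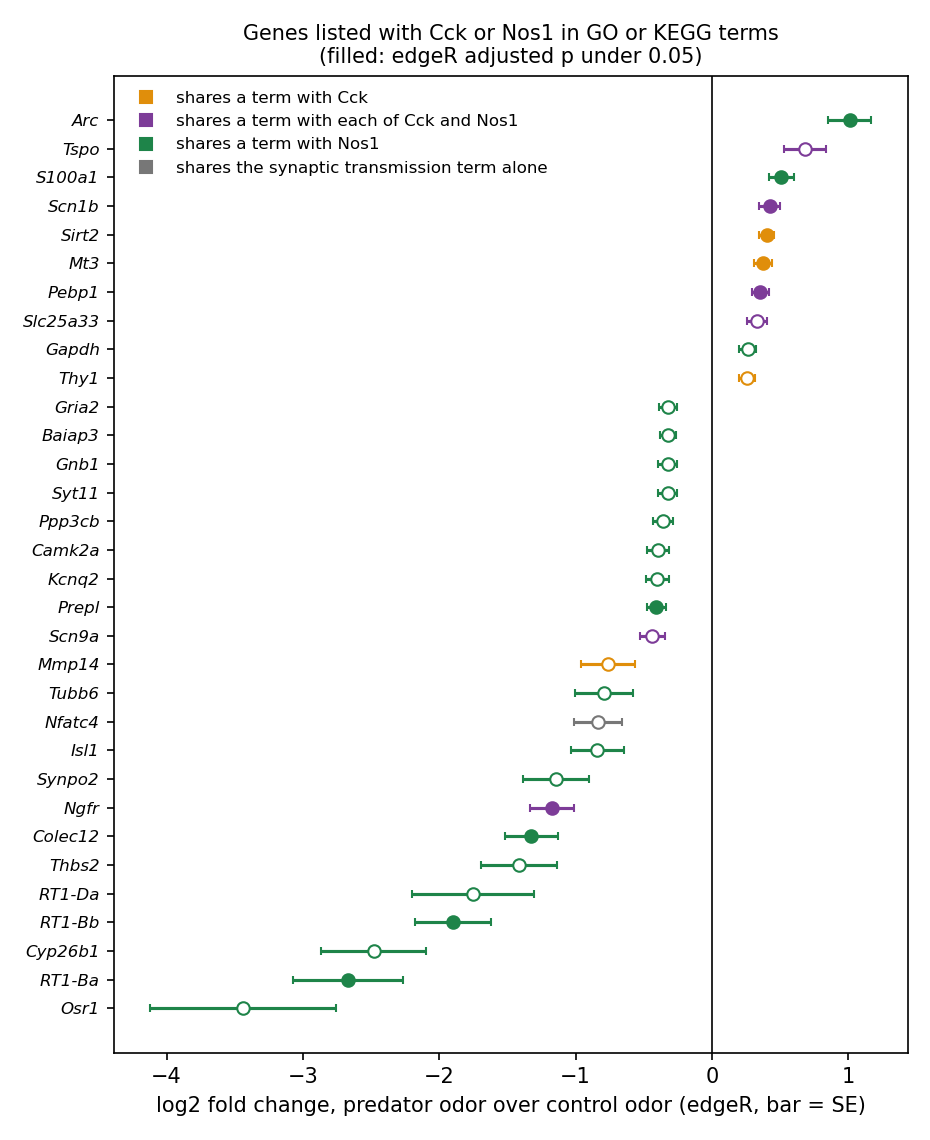
Log2 fold change (PO over control odor, edgeR, bars are SE) of the 32 genes listed beside Cck or Nos1 in small GO terms, in the synaptic transmission term or in KEGG pathways, with filled points for an adjusted p under 0.05. The points on the right of 0 number 10 and those on the left 22.

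Of the 10 genes listed with Cck, 7 had higher and 3 lower means after PO. Ngfr fell (log2 fold change -1.17, SE 0.16, edgeR adjusted p = 0.027, and 0.104 without C2, 0.0612 without C4 and 0.0549 without P14). Sirt2 rose (log2 fold change 0.40, SE 0.06, edgeR adjusted p = 0.027, and 0.131 without C2, 0.0583 without C3 and 0.0612 without C4). Pebp1, which shares the eating behavior term of Cck and encodes a phosphatidylethanolamine-binding protein that inhibits Raf kinase, also rose after PO. It had 1003, 1007 and 1119 CPM in P8, P13 and P14, against 808.3, 862.7 and 777.6 CPM in C2, C3 and C4. It averaged 1043 ± 65.9 CPM after PO and 816.2 ± 43.1 CPM after control odor (SD, n = 3 each), a log2 fold change of 0.35 (SE 0.06, edgeR adjusted p = 0.048). Its edgeR adjusted p was 0.192 without C2, 0.0903 without C3, 0.110 without C4 and 0.0722 without P14. Mt3, a brain metallothionein that binds zinc and shares the response to food, averaged 697.9 ± 62.7 CPM after PO and 538.1 ± 16.6 CPM after control odor (SD, n = 3 each), a log2 fold change of 0.38 (SE 0.07, edgeR adjusted p = 0.048). Its edgeR adjusted p was 0.196 without C2, 0.136 without C3, 0.0848 without C4 and 0.0607 without P14. Tspo, an outer mitochondrial membrane protein, had 11.1, 14.1 and 12.1 CPM in P8, P13 and P14, against 8.61, 6.68 and 7.92 CPM in C2, C3 and C4, and averaged 12.4 ± 1.54 CPM after PO and 7.74 ± 0.978 CPM after control odor (SD, n = 3 each), with an edgeR adjusted p of 0.0679.

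Among the genes listed with Nos1 in the synaptic terms, 2 rose and 1 fell. Arc, an immediate early gene of active neurons, and Pebp1, whose values are given above, rose, and Prepl fell. Arc had 17.2, 16.7 and 16.9 CPM in P8, P13 and P14, against 8.55, 10.3 and 6.41 CPM in C2, C3 and C4, a log2 fold change of 1.01 (SE 0.16, edgeR adjusted p = 0.0396). Its edgeR adjusted p was 0.131 without C2, 0.0612 without C4 and 0.0700 without P14. Prepl, a serine hydrolase of the prolyl endopeptidase family, averaged 93.9 ± 2.58 CPM after PO and 124.6 ± 10.5 CPM after control odor (SD, n = 3 each), a log2 fold change of -0.41 (SE 0.07, edgeR adjusted p = 0.0416). Its edgeR adjusted p was 0.165 without C2, 0.129 without C3 and 0.0774 without P14. Camk2a, a calmodulin-dependent kinase that also phosphorylates neuronal nitric oxide synthase, had 93.7, 103.1 and 80.0 CPM after PO, against 120.0, 121.5 and 122.4 CPM after control odor, with an edgeR adjusted p of 0.0627. Its order over the PO libraries was that of Nos1, with P14 lowest and P13 highest. The control odor rats lay close together for both genes, but Camk2a was highest in C4 and Nos1 in C2. Camk2a is also the only named gene of the telencephalic neuron markers.

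The profile over the 6 libraries was compared with that of every other feature by the root mean square difference of log2 CPM after each profile was centred on its own mean, over 15419 features with a mean of at least 1 CPM, of which 169 had a name. The nearest named profiles to Cck were those of Mfng at 0.22, Arc at 0.22, Fa2h at 0.28, Tspo at 0.28 and Enpp2 at 0.29, against a median of 0.55 over all features. Nearest to Nos1 were AABR07005588.1 at 0.07, RGD1311744 at 0.07, Fam171a1 at 0.08, Mtpn at 0.08 and Sun1 at 0.09, against a median of 0.34. For Cck 13 unnamed features and for Nos1 8 unnamed features lay nearer than the first named gene. Of the 175 names, 131 come from the study's table of called genes, 40 from the paper's top up-regulated and down-regulated genes and 4 from the KEGG table. All were thus selected on this contrast and do not sample the tissue evenly. Their nearness to Cck or Nos1, against the median of all features, is not independent evidence. The distances also rest on the same 6 libraries as the fold changes.

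The other listed genes of the CCK and nitric oxide pathways could not be read out, because the IDs of the table could be paired with a symbol for 175 features. The lists of CCK processing enzymes and receptors, the other synthases, NOS1 partners, cofactor genes and targets of nitric oxide hold 43 genes besides Cck and Nos1, of which 0 had a name here, and of 36 other transmitter genes 0 had one. The paper names the endothelial synthase Nos3 among its called genes, but its level was not read out here. Of 111 marker genes of the cell types a micropunch could hold, 10 had a name. None of the named ones marks VMH neurons, so the tissue label was not checked here against its own markers.

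Of the 12 leptomeningeal fibroblast markers, 7 were named, and their summed level was 76.0, 44.9 and 38.2 CPM in P8, P13 and P14, against 175.2, 134.4 and 195.7 CPM in C2, C3 and C4. It was lower after PO in every library, and Col3a1 and Slc6a13 among them fell (edgeR adjusted p = 0.027 and 0.048). All names, those of the markers in this paragraph included, came from the study's own lists of called genes. The direction of these markers is thus not independent evidence. The edgeR adjusted p of Col3a1 was 0.0688 without C2, 0.0612 without C4 and 0.0775 without P14. That of Slc6a13 was 0.0562 without P8, 0.0627 without P13, 0.134 without P14, 0.0921 without C3 and 0.0533 without C4. Of the oligodendrocyte markers only Olig2 was named, and it rose, at 69.4, 68.9 and 71.6 CPM after PO, against 46.5, 50.8 and 43.3 CPM after control odor (edgeR adjusted p = 0.0238, and 0.0621 without C2 and 0.0533 without C4). The choroid plexus marker Folr1 had 8.11, 17.2 and 8.74 CPM after PO, against 5.15, 3.80 and 3.77 CPM after control odor. The share of reads that spanned a splice site was 25.14%, 25.76% and 24.84% after PO, against 25.84%, 25.79% and 25.73% after control odor. The part of these differences in the levels of Cck and Nos1 was not tested.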

How the data were processed

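Poly-A RNA libraries of VMH micropunches were sequenced by the authors as paired reads (base calls with CASAVA 1.8, per the labels), aligned to Rnor_5.0 with HISAT2 and counted per gene with HTSeq. The authors deposited raw counts and FPKM, and the deposited FPKM equal the counts scaled to the library total and to 1 length per gene, within 1%, in 15347 of 15347 genes with at least 10 counts in every library. Library totals ranged from 15835375 to 20316213 counts. Columns of the authors' own fold changes and p-values were not used, and from their GO and KEGG tables only term membership was read. Whether counting used strand is not stated. No 2 libraries agreed within sampling noise.

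Counts were fitted in edgeR 4.0.16 (R 4.3.3) with TMM factors, filterByExpr and the robust quasi-likelihood test, predator odor over control odor, with Benjamini-Hochberg adjustment over all 16685 features kept. DESeq2 1.42.0 (which gives adjusted p-values to 13707 features), limma voom 3.58.1, other scalings, no filter, FPKM with pseudocounts of 1 and 0.1, and leaving out each library were alternatives, and the fits were tested on simulated data. In the profile comparison CPM below 0.01 were set to 0.01 before log2. Named are Cck and Nos1, the named members of the pathway lists, of the other lists the members past the threshold or the 2 with the highest CPM, and the 5 named genes nearest to each profile. The genes sharing a term were chosen after their values were seen. Members and lists were chosen with earlier results of these data known.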

Additional observations from a re-analysis of the deposited data

How the results depend on the processing

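Cck and Nos1 kept the direction of their fold change under all 15 alternatives each, and the difference of their ratio kept its direction in all 6 omissions, between 1.297 and 1.61 on the log2 scale. For the omissions the direction was fixed beforehand, as the genes were chosen on this contrast and the groups did not overlap in either gene or in the ratio. The kept direction is thus no independent evidence. The count of all features called by edgeR, 59, was 103 with library size alone, 433 with no filter on low counts, 865 with DESeq2 and 16 with limma voom, and between 9 and 266 when 1 library was left out. Of the 10 named marker genes, all from the study's own lists of called genes, 3 were called. The count was 5 with no filter and 8 with DESeq2, and between 0 and 6 when 1 library was left out. The cause was not tested. Of the 32 genes that share a term 11 were called, and 28 without a filter. Lists of pathway and transmitter genes gave no value under any setting, as none of their genes had a name here. No paired analysis was possible because the labels give the groups no shared replicate numbers. With 71 to 419 counts per library for the 2 genes, counting error limits the precision of Cck more than that of Nos1.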
